A study of Mus musculus with 6 samples.

Results

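The genes described here are the chemokines, the small secreted proteins that direct the migration of leukocytes, and their receptors. They were chosen by symbol alone: every gene of the deposited table named Ccl, Cxcl, Ccr, Cxcr or Ackr with a number, and Cx3cl1, Cx3cr1, Xcl1, Xcr1, Pf4, Ppbp and Ccrl2. The rule found 55 of 17030 genes. Ccl21c and Ccl21d had identical values in all libraries and counted once, which left 54 members: 30 ligands, 22 receptors and 2 pseudogenes. RNA-seq had been done on the mononuclear fraction of skeletal muscle; the mice were C57BL/B6 males that bore LLC tumours, a transplantable mouse lung carcinoma used as a model of cancer cachexia. The first group, called Pax7-CreERT here, had the genotype Pax7 Cre ErT x IKKbfl/fl (n = 3 mice), in which tamoxifen activates Cre under the control of Pax7, a satellite cell gene. The second group, the controls, had the genotype IKKbfl/fl without Cre (n = 3 mice). All 6 mice thus carried floxed IKKb, the kinase of the canonical NF-kB pathway encoded by Ikbkb, bore a tumour, and received tamoxifen on days 10 to 14 after tumour cell injection. Since Cre was present only together with floxed IKKb, Cre itself and the deletion cannot be told apart. Ages were not given in the sources used here. Values below list replicates 1, 2 and 3 of the Pax7-CreERT group ("with Cre") and then of the controls ("without Cre"). The comparison asks whether loss of IKKb in Pax7-lineage cells alters the transcripts of the muscle's mononuclear cells.

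Chemokines are grouped by the spacing of the cysteines near their amino terminus into CC, CXC, CX3C and XC families, and they act through G protein-coupled receptors of the matching families. Many inflammatory chemokine genes are textbook targets of NF-kB, while others, such as Cxcl12, are made constitutively by stromal and endothelial cells and hold or place leukocytes in tissues. Atypical receptors bind chemokines without the usual G protein signal and remove or present them.

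Values are in CPM, read numbers scaled to the same total in every library. The estimated depths were 4054000 to 13355000 reads, so a gene at 10 CPM had a counting SD of 8.65% to 15.7% per library. Ikbkb was at 48.4 to 52.7 CPM with Cre and at 48.8 to 57.4 CPM without, which does not check the labels, because the preparation holds many cell types and Cre was driven in satellite cells. The leukocyte marker Ptprc was present in every library, at 27.9 to 58.2 CPM, and the 7 satellite cell markers and the 10 endothelial markers examined reached 1 CPM in all 6 libraries. Control replicate 3 stood apart from the other libraries: the summed CPM of 7 erythroid markers was 119827 in it and 16133 to 45591 in the other 5. It was also the shallowest. Pax7-CreERT replicate 3 and control replicate 3 held more B cell marker transcripts than the other 4 libraries, with values given below. The labels gave no batch or date.

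No member passed the test between the genotypes. Of the 54, 42 had at least 1 CPM in at least 3 libraries and were tested, in a limma fit over all 14763 such genes on log2(CPM + 1). At an adjusted p under 0.05, 0 of the 42 passed, and the lowest adjusted p among them was 0.896. The background was low as well, since 1 of 14763 genes passed, or 0.00677%. At an unadjusted p under 0.05 the count was 0 of 42 members, against 5.52% of all tested genes. That count depended on the libraries kept: without control replicate 3, 8 of 42 members, all higher with Cre, had an unadjusted p under 0.05, or 19%, against 6.48% of all tested genes in the same fit. It was 7 of 42, or 16.7%, with array weights (7.59% of all genes) and 9 of 37, or 24.3%, without replicate 3 of both groups (8.7%). Without Pax7-CreERT replicate 2 it was 5 of 41, or 12.2% (3.26%), and without Pax7-CreERT replicate 3 it was 4 of 41, or 9.76% (5.84%). In other fits the members' share was below or close to that of all genes. It was 1 of 42, or 2.38%, without Pax7-CreERT replicate 1 (2.97%), and 1 of 41, or 2.44%, without control replicate 1 (6.93%). Without control replicate 2 it was 0 of 42 (6.08%). Without both Pax7-CreERT replicate 1 and control replicate 3 it was 2 of 38, or 5.26% (4.74%). TMM scaling and voom each gave 1 of 42, or 2.38% (4.59% and 5.62%). None of these members passed the adjusted threshold. With voom on CPM scaled to the estimated depth, 0 members passed as well. By sign, 20 members were higher and 22 lower with Cre, while 68% of all tested genes were higher. The median log2 fold change was -0.02 over the members and 0.09 over all tested genes. The 23 tested ligands divided 12 to 11 (median 0.10) and the 19 tested receptors 8 to 11 (median -0.16), higher to lower. Without control replicate 3 the receptors divided 13 to 6 (median 0.16) and the ligands 16 to 7 (median 0.20), and without Pax7-CreERT replicate 2 they divided 12 to 7 and 15 to 7. In these fits 59.0% and 64.9% of all tested genes were higher. Without control replicate 2 the receptors divided 5 to 14 and the ligands 13 to 10, with 68.0% of all tested genes higher. Without control replicate 1 the receptors divided 7 to 12 and the ligands 11 to 11, with 67.5% higher. After scaling with TMM factors 19 members were higher and 23 lower, and 49.5% of all genes were higher.

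The members' own intervals show what these 6 mice could and could not resolve. For 21 of the 42 members the 95% interval of the genotype difference lay within a 2-fold change in either direction, and for the other 21 it reached further. For 5 of them, Ackr3, Cxcl16, Ccrl2, Cxcl12 and Ccl27a, it lay within 1.5-fold. The intervals are on the log2(CPM + 1) scale, which understates the fold changes of low genes. With 0.1 in place of 1 the log2 fold change of Xcr1 went from 0.67 to 1.46. For members near 1 CPM the intervals thus do not bound the fold change of the CPM itself. The 2 groups did not overlap for 2 of the 42 members, Ackr3 and Cxcr2, against 11% of all tested genes (8.69% higher and 2.28% lower). An exact permutation test of 3 mice against 3 cannot give a p below 0.1, and the other 40 members had at least 1 Pax7-CreERT value within the control range or the reverse.

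**Figure D1:**
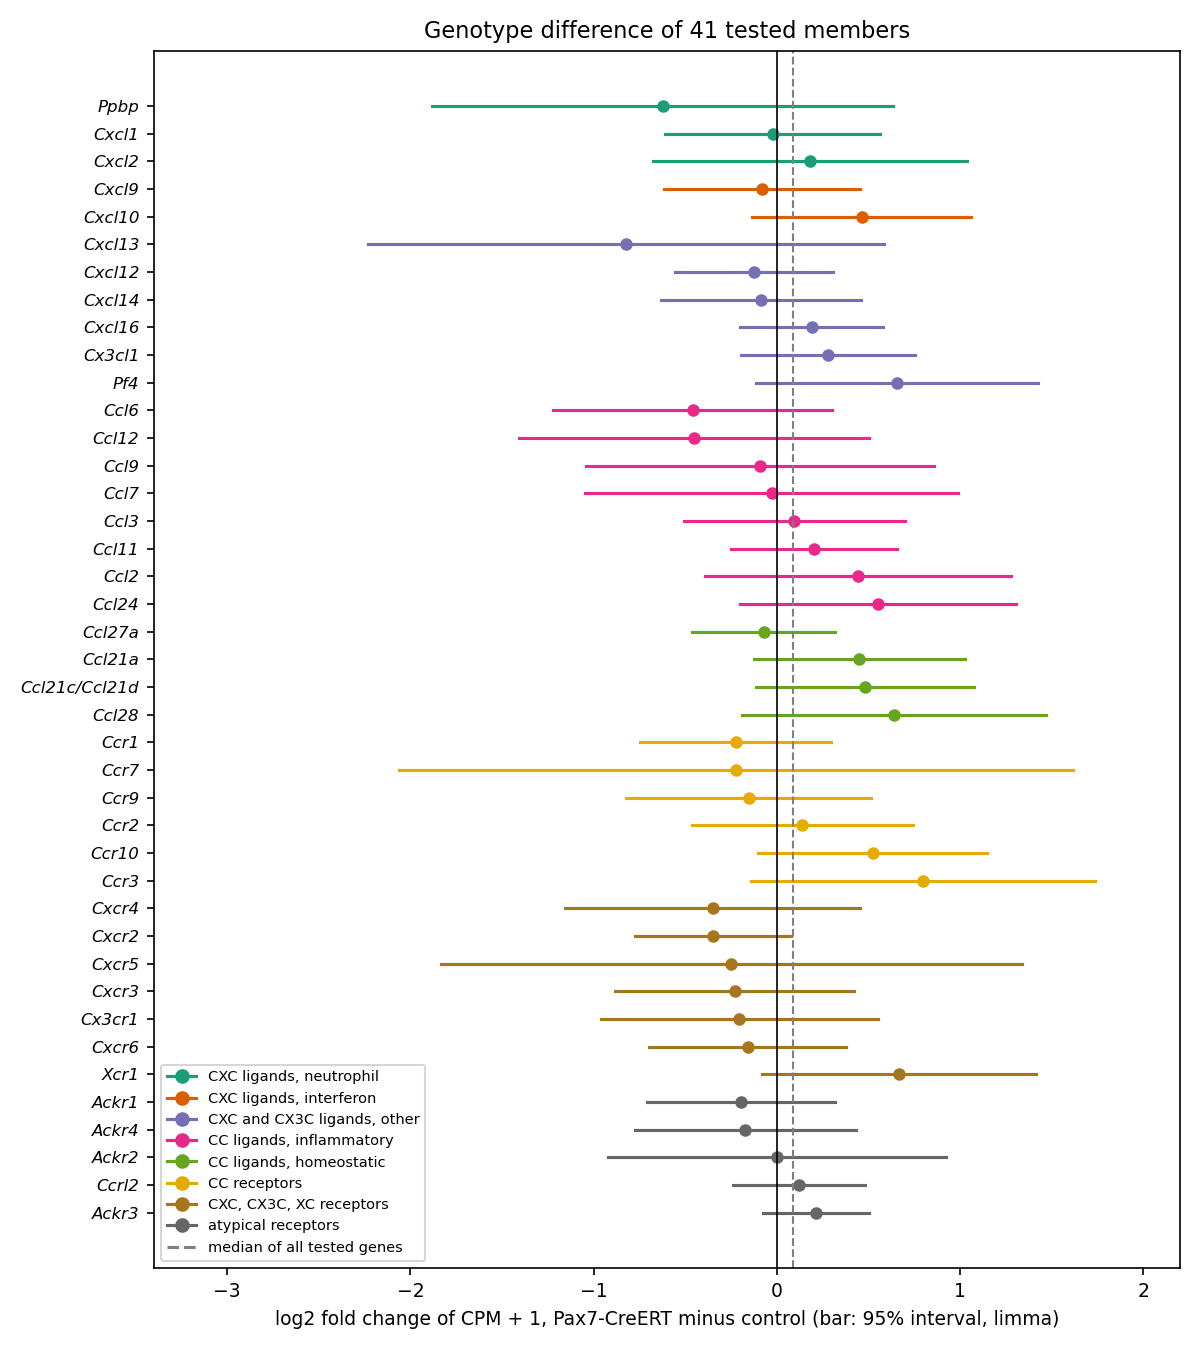
Genotype difference of 41 of the 42 tested members, as the log2 fold change of CPM + 1 (Pax7-CreERT minus control, horizontal axis) with the 95% interval from limma, grouped and coloured by role. Every interval includes 0, the log2 fold changes run from -0.82 for Cxcl13 to 0.80 for Ccr3, and the dashed line is the median of all tested genes at 0.09.

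The ligands that attract neutrophils were all above the filter, 1 higher and 2 lower with Cre. Cxcl1, which acts on the receptor Cxcr2, measured 64.4, 30.0 and 52.7 CPM with Cre and 59.8, 39.5 and 45.1 CPM without Cre. The groups covered each other, with the highest and the lowest library both in the Pax7-CreERT group (log2 fold change -0.02, SE 0.26, 95% interval -0.61 to 0.57, limma adjusted p = 0.991). Cxcl2, its neighbour with the same receptor, measured 26.5, 6.96 and 17.9 CPM against 11.03, 16.4 and 12.6 CPM. For Cxcl2 too the controls lay inside the range of the Pax7-CreERT libraries. Ppbp, a platelet chemokine also bound by Cxcr2, measured 7.04, 9.21 and 50.5 CPM against 23.7, 19.7 and 29.1 CPM. Its Pax7-CreERT replicates 1 and 2 lay below every control and replicate 3 above them all.

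Cxcl1, Cxcl2 and Cxcl10 are textbook NF-kB target genes, and the 250 bases before their start sites are shown because the genotype under study removes the kinase that activates NF-kB. Sequences are from the RefSeq promoter table of GRCm38.p6 and run 5′ to 3′ on the gene's strand. Capitals mark matches on either strand to the NF-kB decamer consensus (the kB motif) and, in Cxcl10 alone, also to the interferon-response motif GAAANNGAAA, which is the first run of capitals there.
Cxcl1 (chr5:90890995-90891244, plus strand): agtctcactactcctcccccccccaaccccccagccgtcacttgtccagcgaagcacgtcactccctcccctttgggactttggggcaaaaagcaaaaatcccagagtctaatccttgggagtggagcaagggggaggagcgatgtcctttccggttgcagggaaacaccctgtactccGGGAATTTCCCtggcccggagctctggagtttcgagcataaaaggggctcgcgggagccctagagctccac
Cxcl2 (chr5:90903649-90903898, plus strand): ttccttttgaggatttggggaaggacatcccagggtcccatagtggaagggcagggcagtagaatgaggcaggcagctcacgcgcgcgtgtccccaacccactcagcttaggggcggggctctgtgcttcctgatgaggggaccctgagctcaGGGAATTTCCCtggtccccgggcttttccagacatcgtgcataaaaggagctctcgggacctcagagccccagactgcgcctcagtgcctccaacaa
Cxcl10 (chr5:92348890-92349139, minus strand): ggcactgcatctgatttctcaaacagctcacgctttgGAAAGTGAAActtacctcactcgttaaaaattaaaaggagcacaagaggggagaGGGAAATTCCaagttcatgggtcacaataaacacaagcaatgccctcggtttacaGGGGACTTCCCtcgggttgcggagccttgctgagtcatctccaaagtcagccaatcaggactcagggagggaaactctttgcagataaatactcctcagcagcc

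In Cxcl1 and Cxcl2 the match was the same decamer, GGGAATTTCC, beginning 71 and 97 bases before the start site, and each overlapped a match on the other strand shifted by 1 base. Cxcl10 held matches beginning 159 and 104 bases before its start, the second overlapped by others. Of the 38 members with an entry in the promoter table, 9 held at least 1 kB match in this window, or 23.7%, against 10.5% of 13334 genes of the deposited table. They were Ackr2, Ccl9, Ccr1, Ccr3, Ccr6, Ccrl2, Cxcl1, Cxcl2 and Cxcl10. The interferon-response motif was in 2 of 38, Cxcl10 and Cxcl14, against 3.33% of all. A match describes the letters and does not show that a factor binds. Of these 9 genes the 8 that were tested had log2 fold changes on both sides of 0, from -0.22 for Ccr1 to 0.80 for Ccr3.

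Cxcl9 and Cxcl10, interferon-inducible ligands of Cxcr3 on T and NK cells, had 1 member higher and 1 lower. Cxcl10 measured 8.10, 4.79 and 7.73 CPM with Cre and 5.52, 5.39 and 3.21 CPM without Cre. Mean levels were 6.87 ± 1.81 and 4.70 ± 1.30 CPM (SD, n = 3 each), and the groups overlapped through Pax7-CreERT replicate 2. Cxcl9 measured 5.78, 9.43 and 6.11 CPM against 6.52, 9.30 and 6.66 CPM, with replicate 2 the highest of each group. The third gene of the set, Cxcl11, stayed under the filter at 0.315 to 1.018 CPM.

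Cxcl12 made up most of the ligand CPM in every library. This ligand of Cxcr4 and Ackr3, made by stromal cells, measured 954, 1369 and 1334 CPM with Cre and 1242, 1229.6 and 1474 CPM without Cre. The groups overlapped, with Pax7-CreERT replicate 1 the lowest and control replicate 3 the highest. Group means came to 1219 ± 230.2 and 1315 ± 138 CPM (SD, n = 3 each; log2 fold change -0.12, SE 0.19, 95% interval -0.56 to 0.31, limma adjusted p = 0.945). The interval corresponds to a change between -32.0% and 24.0%. Its share of the CPM of all 30 ligands was 64.0% to 80.3% over the 6 libraries, a share that also depends on transcript length.

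Cxcl14, a stromal chemokine, measured 129, 82.0 and 113 CPM with Cre and 92.8, 92.1 and 167 CPM without Cre. Control replicate 3 stood above the other 5 libraries. Cx3cl1, the membrane-bound ligand of Cx3cr1 on endothelium, measured 25.0, 25.2 and 15.7 CPM against 16.7, 20.7 and 15.5 CPM (log2 fold change 0.28, SE 0.21). Its Pax7-CreERT replicates 1 and 2 were above all controls and replicate 3 was not. Cxcl16, the ligand of Cxcr6, varied little, from 12.8 to 18.9 CPM. Pf4, a platelet chemokine, measured 6.10, 2.40 and 6.72 CPM against 2.51, 1.89 and 3.70 CPM (log2 fold change 0.66, SE 0.35, limma adjusted p = 0.896). The groups overlapped through Pax7-CreERT replicate 2, and the value without that replicate was 1.03 (limma adjusted p = 0.999).

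Of the inflammatory CC ligands 8 were tested, 4 higher and 4 lower with Cre (median log2 fold change 0.03). Without control replicate 3 they were 7 and 1 (median 0.38), and without Pax7-CreERT replicate 2 they were 6 and 2 (median 0.29). Without control replicate 1 they were 3 and 5 (median -0.09). The eotaxin gene Ccl11, whose product attracts eosinophils through Ccr3, measured 96.3, 59.7 and 71.4 CPM with Cre. Without Cre it measured 54.2, 60.9 and 81.4 CPM, and the ranges overlapped. A second eotaxin gene, Ccl24, was near the filter, with 3.15, 1.198 and 2.44 CPM against 1.003, 0.674 and 1.97 CPM. Ccl9, a rodent ligand of Ccr1, measured 54.6, 31.8 and 39.3 CPM against 26.1, 31.3 and 101 CPM. For Ccl9, control replicate 3 was the highest library and control replicate 1 the lowest. Ccl6, another rodent ligand of Ccr1, measured 20.9, 13.8 and 12.2 CPM against 16.4, 14.8 and 39.5 CPM (log2 fold change -0.46, SE 0.34, limma adjusted p = 0.899). The difference in Ccl6 turned on control replicate 3, and without that library its log2 fold change was -0.03.

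The Ccr2 ligands Ccl2, Ccl7 and Ccl12, which attract monocytes, were all at low CPM. Ccl2 measured 5.78, 1.65 and 4.07 CPM with Cre and 2.67, 1.35 and 3.21 CPM without Cre. Ccl7 measured 5.57, 1.57 and 5.29 CPM against 3.51, 1.89 and 7.65 CPM, and Ccl12 1.68, 0.674 and 1.22 CPM against 0.836, 1.35 and 4.93 CPM. In Ccl2 and Ccl7 replicate 2 was the lowest library of each group, although the highest library differed. The log2 fold change of Ccl12 was -0.45 (SE 0.43) with all libraries and 0.05 without control replicate 3. Ccl3, a ligand of Ccr1, measured 1.84 to 3.70 CPM. Its relatives Ccl4 and Ccl5 stayed under the filter. Ccl5, a T cell chemokine, measured 0.210, 0.225 and 0.407 CPM against 0.669, 0.808 and 0.493 CPM. Its groups did not overlap, but the values lie near the worth of 3 reads, 0.225 to 0.740 CPM over the libraries.

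Of the homeostatic CC ligands 4 were tested, 3 higher and 1 lower with Cre (median log2 fold change 0.47). They included Ccl21a, a lymphatic endothelial chemokine that draws Ccr7-bearing cells. Ccl21a measured 20.8, 14.0 and 11.5 CPM with Cre and 9.80, 8.47 and 14.6 CPM without Cre. The near-identical copies Ccl21c and Ccl21d shared 1 set of values, 9.40, 6.23 and 5.17 CPM against 5.18, 3.29 and 5.43 CPM. Reads cannot be assigned with certainty among these copies, so the entries are not separate observations. Both had the highest value in Pax7-CreERT replicate 1 and the lowest in control replicate 2 (log2 fold changes 0.45, SE 0.26, and 0.48, SE 0.27, limma adjusted p = 0.896 for both). The sum of 6 lymphatic endothelial markers was also highest in Pax7-CreERT replicate 1 and lowest in control replicate 2, at 572 and 337 CPM. Its markers did not all follow it. Prox1, Mmrn1 and Reln were lowest in control replicate 2. Flt4 and Pdpn, at 78.3 and 19.0 CPM there, were exceeded only by Pax7-CreERT replicate 1, and Lyve1 was highest in control replicate 3. The part of lymphatic endothelial content in these values was not tested. Ccl27a, an epithelial chemokine with near-identical copies of its own, was the most even member, at 9.06 to 11.1 CPM. Ccl28, a mucosal chemokine, measured 0.631, 2.40 and 2.04 CPM against 1.34, 0.270 and 0.493 CPM.

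**Figure D2:**
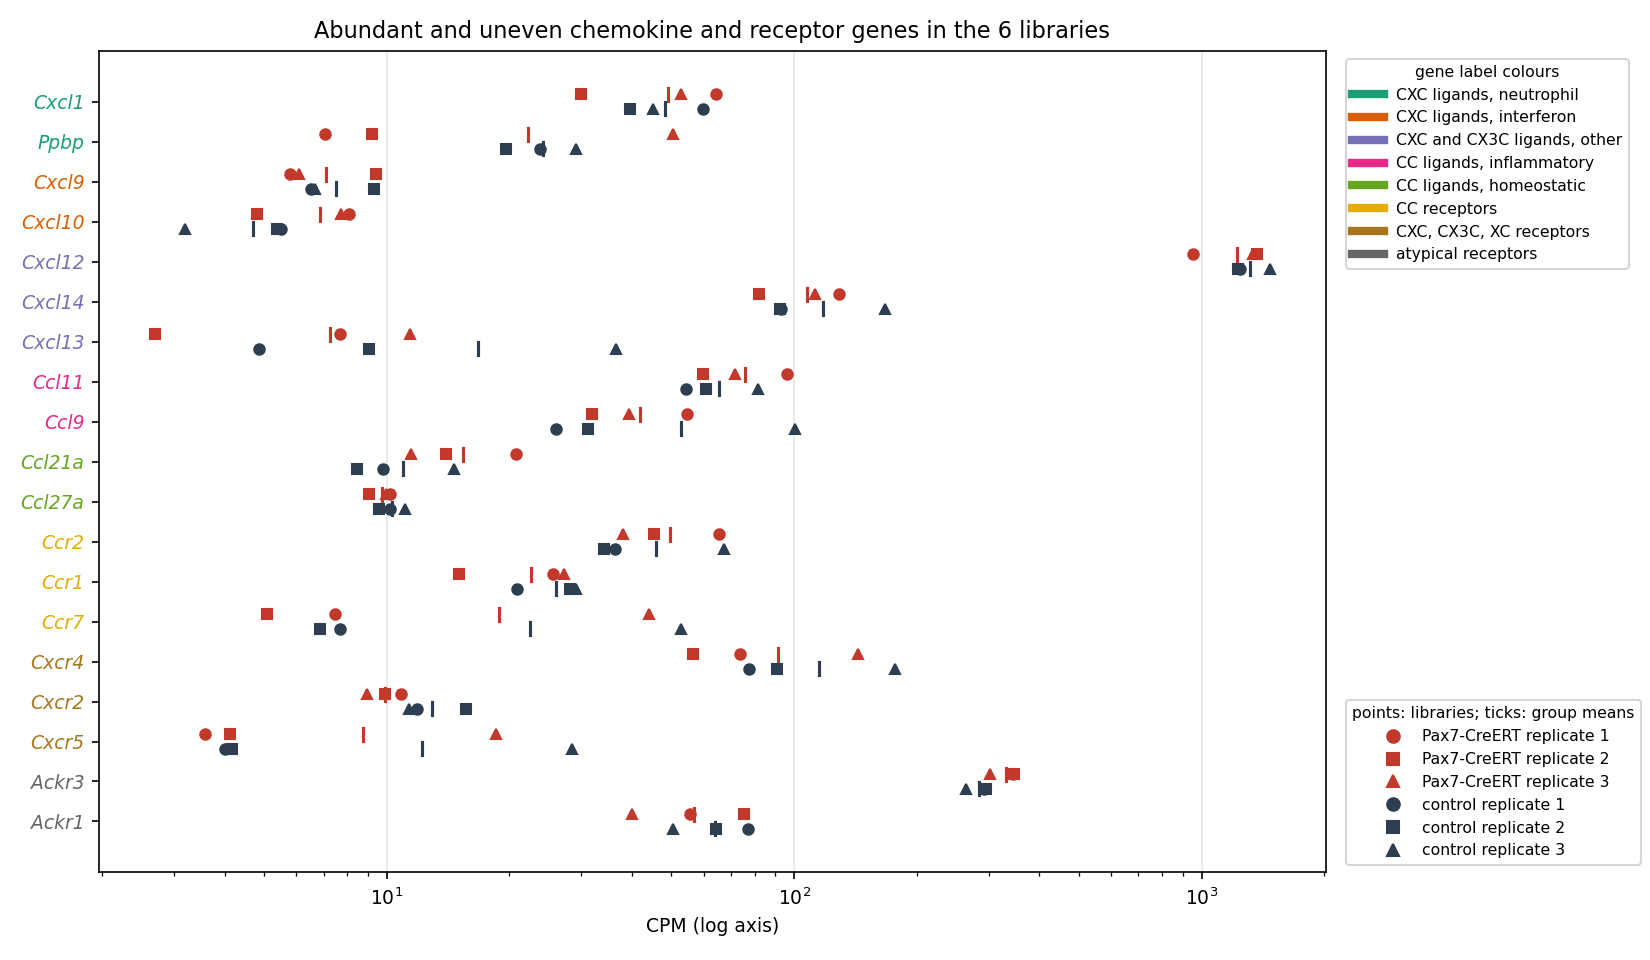
CPM of 19 members in each of the 6 libraries (log axis), chosen as the 2 most abundant of each role and the most uneven. Points are libraries (red, Pax7-CreERT; dark, control; circle, square and triangle for replicates 1, 2 and 3) and ticks are group means. Most genes show overlapping groups, Ccr7, Cxcr5 and Cxcr4 show replicate 3 of both groups apart from the rest, and Ackr3 and Cxcr2 show groups that do not overlap.

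The CC receptors divided 4 to 3 (median log2 fold change 0.14) and the CXC, CX3C and XC receptors 1 to 6 (median -0.23), higher to lower. Without control replicate 3 these became 5 to 2 (median 0.45) and 4 to 3 (median 0.01). Without Pax7-CreERT replicate 2 the CC receptors divided 7 to 0, and without control replicate 2 they divided 2 to 5. Cxcr2, the neutrophil receptor of Cxcl1, Cxcl2 and Ppbp, measured 10.8, 9.88 and 8.96 CPM with Cre and 11.9, 15.6 and 11.3 CPM without Cre. All 3 Pax7-CreERT values were below all 3 controls, with a narrow gap between 10.8 and 11.3 CPM. Means were 9.89 ± 0.936 and 12.9 ± 2.34 CPM (SD, n = 3 each; log2 fold change -0.35, SE 0.19, 95% interval -0.77 to 0.08, limma adjusted p = 0.896, exact two-sided permutation p = 0.1). The summed CPM of 11 neutrophil markers was 70.2 to 121 in the Pax7-CreERT libraries and 93.9 to 145 in the controls, with Ly6g and Camp at 0 in at least 1 library. The part of neutrophil content in the Cxcr2 values was not tested. In these bulk samples fewer cells of a type and less RNA per cell cannot be told apart.

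Ccr2, the receptor of inflammatory monocytes for Ccl2, Ccl7 and Ccl12, measured 65.3, 45.2 and 38.1 CPM with Cre and 36.3, 34.1 and 67.3 CPM without Cre. One library in each group stood high, and the others lay together at 34.1 to 45.2 CPM. Ccr1, a receptor of Ccl3, Ccl6 and Ccl9, measured 25.5, 15.1 and 27.3 CPM against 20.9, 28.2 and 29.1 CPM. Cx3cr1, the fractalkine receptor, measured 12.4, 5.99 and 5.29 CPM against 6.85, 6.87 and 13.6 CPM, again with 1 high library in each group.

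Several receptors were faint. Xcr1, the receptor of cross-presenting dendritic cells, measured 1.47, 1.42 and 1.83 CPM with Cre and 0.502, 0.135 and 1.48 CPM without Cre (log2 fold change 0.67, SE 0.34, unadjusted p = 0.0748, the smallest of any member, limma adjusted p = 0.896). Control replicate 3 lay within the Pax7-CreERT range. Ccr3, the eotaxin receptor, measured 2.73, 1.72 and 2.24 CPM against 0, 0.808 and 2.47 CPM, with a log2 fold change of 0.80 (SE 0.42). Leaving out control replicate 1 gave 0.36 and leaving out control replicate 3 gave 1.25 (limma adjusted p = 0.798 and 0.595). The zero in control replicate 1 allows up to 0.501 CPM at its depth, by 3 reads, for counting error only. Ccr10, the receptor of Ccl27a and Ccl28, measured 5.36, 2.92 and 3.46 CPM against 3.18, 2.29 and 1.73 CPM (log2 fold change 0.52, SE 0.28). Pax7-CreERT replicate 2 lay below control replicate 1. Ccr9, the gut homing receptor, and Cxcr6 measured 3.59 to 8.94 and 4.58 to 7.89 CPM with overlapping groups, and Cxcr3 0.899 to 2.22 CPM.

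Among the atypical receptors, 3 higher and 2 lower (1 and 4 without Pax7-CreERT replicate 1, 4 and 1 without control replicate 3), was the member whose groups were apart in the higher direction. Ackr3, which binds and removes Cxcl12, measured 344, 346 and 302 CPM with Cre and 292, 296 and 264 CPM without Cre. All 3 Pax7-CreERT values were above all 3 controls, though the gap between 296 and 302 CPM was within counting error. They averaged 331 ± 25.0 and 284 ± 17.4 CPM (SD, n = 3 each; log2 fold change 0.22, SE 0.13, 95% interval -0.07 to 0.51, limma adjusted p = 0.896, exact two-sided permutation p = 0.1). It was 0.12 after TMM scaling, which also moved the median of all genes, from 0.09 to -0.002. Ackr1, which venular endothelium and erythroid cells carry, measured 55.4, 75.2 and 39.9 CPM against 77.2, 64.4 and 50.6 CPM. Replicate 3 of each group had the lowest Ackr1 value of that group. Erythroid marker sums were highest in the same 2 libraries. The part of erythroid and endothelial content in the Ackr1 values was not tested.

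The scavenger of inflammatory CC chemokines, Ackr2, measured 28.9, 13.3 and 13.4 CPM with Cre and 12.0, 12.0 and 35.3 CPM without Cre. Again 1 library of each group stood high, and its log2 fold change was 0.0008 (SE 0.41). Ackr4, which removes Ccl19 and Ccl21, measured 9.88, 9.58 and 7.73 CPM against 9.36, 7.14 and 16.0 CPM. Ccrl2, which binds chemerin, measured 45.9, 35.6 and 34.6 CPM against 31.1, 35.4 and 39.7 CPM.

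For 29 of the 42 tested members the highest library was over 2-fold above the lowest, or 69%, against 31.3% of all tested genes. For 12 it was over 4-fold, or 28.6%, against 8.11%. The CV between mice of a group was above the mean counting CV in 39 of the 41 members for which both could be computed, or 95.1%, against 84.9% of all tested genes. It was over 3 times it in 18, or 43.9%, against 20.9%. For Cxcl12, which had the lowest counting CV, 1.10%, the mice of a group had a CV of 15.0%. Ccl27a was the opposite case, with a CV between mice of 6.91% and a counting CV of 12.4%. The highest library was control replicate 3 for 20 members, or 47.6%, against 14.8% of all genes. For 13 members, or 31%, it was Pax7-CreERT replicate 1, against 20.4% of all genes. The lowest library was control replicate 2 for 13, or 31%, against 14.2% of all genes, Pax7-CreERT replicate 2 for 12, or 28.6%, against 9.01%, and Pax7-CreERT replicate 1 for 4, or 9.52%, against 9.55%. Control replicate 3 was the lowest for 4 members, or 9.52%, although it was the lowest for 39.8% of all genes.

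**Figure D3:**
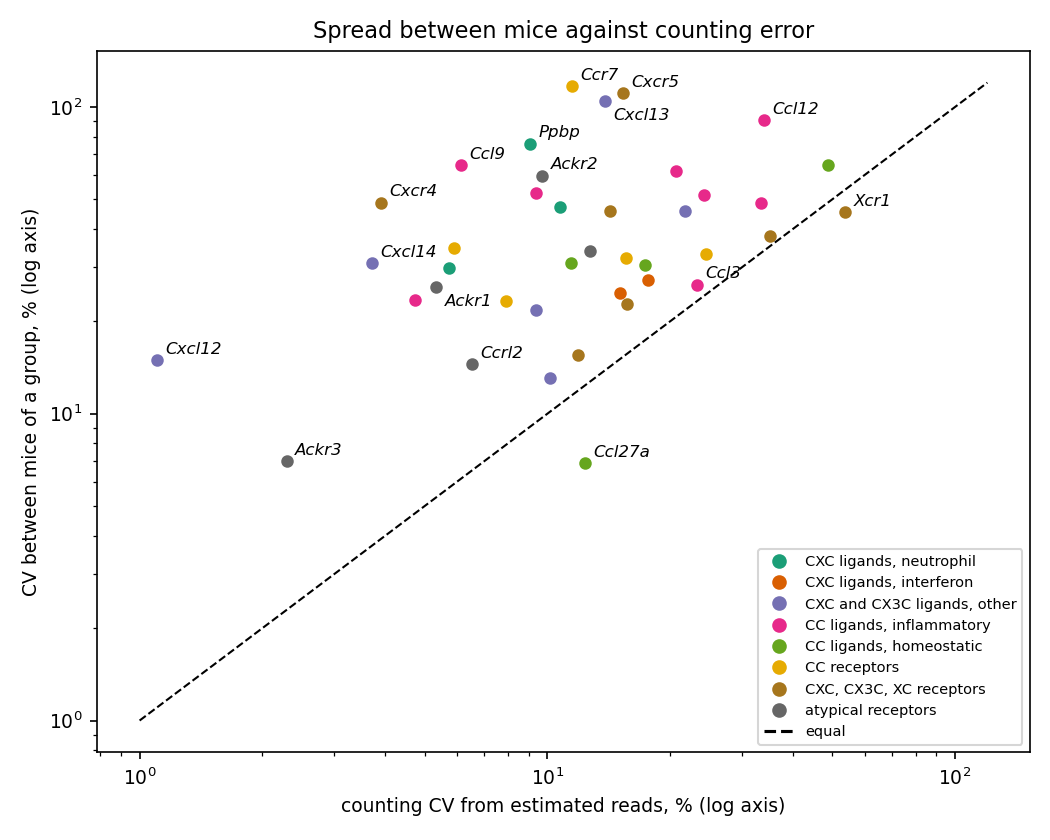
CV between the mice of a group (vertical, %, pooled over both groups) against the CV from counting reads at the estimated depth (horizontal, %), 1 point per tested member shown, both axes logarithmic. Most points lie above the dashed line of equality, with Ccr7, Cxcr5 and Cxcl13 at CVs above 100% and Cxcl12 at 15.0% against a counting CV of 1.10%.

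One group of members was high in replicate 3 of both genotypes. Ccr7, which guides lymphocytes and dendritic cells to lymph nodes, measured 7.46, 5.09 and 44.0 CPM with Cre and 7.69, 6.87 and 52.8 CPM without Cre. Cxcr5, the receptor that places B cells in follicles, measured 3.57, 4.13 and 18.5 CPM against 4.01, 4.18 and 28.5 CPM. Its ligand Cxcl13 measured 7.67, 2.70 and 11.4 CPM against 4.85, 9.03 and 36.5 CPM. Each of these 3 genes had its highest value of either group in replicate 3. Cxcr4, the receptor of Cxcl12 on most leukocytes, measured 73.6, 56.5 and 144 CPM against 77.4, 90.7 and 177 CPM. Ccr6, a receptor of B cells and some T cells that stayed under the filter, measured 0.315, 0.2996 and 4.07 CPM against 0, 0.404 and 4.19 CPM.

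Both of these libraries were above the other 4 in 7 of the 42 tested members, or 16.7%, against 5.84% of all tested genes. They were Ccr7, Cxcr5, Cxcl13, Cxcr4, Ppbp, Xcr1 and Ccl3. Cxcl13 and Ppbp entered by margins that were small against counting error. Cxcl13 had 11.4 CPM in Pax7-CreERT replicate 3 against 9.03 CPM in control replicate 2. Ppbp had 29.1 CPM in control replicate 3 against 23.7 CPM in control replicate 1. Xcr1 and Ccl3 entered by margins within counting error. Xcr1 had 1.480 CPM in control replicate 3 and Ccl3 3.46 CPM in Pax7-CreERT replicate 3, against 1.472 and 3.26 CPM in Pax7-CreERT replicate 1. The summed CPM of 5 B cell markers, all at 1 CPM or more in every library, was also highest in the 2 replicate 3 libraries. It was 13.5, 11.4 and 85.3 in the Pax7-CreERT replicates and 15.4, 13.5 and 142 in the controls. Per 100 CPM of these markers, Ccr7 stood at 37.2 to 55.5 CPM and Cxcr5 at 20.08 to 36.3 CPM in the 6 libraries. Cxcl13 ranged from 13.4 to 67.0 CPM per 100. Cxcr4 did not keep such a ratio either, with 496 to 673 CPM per 100 in the 4 libraries low in B cell markers and 168 and 125 CPM per 100 in replicate 3 of the Pax7-CreERT and control groups. The summed CPM of 7 T and NK cell markers was also highest in these libraries, at 17.5 and 23.2, against 4.72 to 7.78 in the others. Most of this sum was Cd2, at 12.8 and 17.3 CPM in these libraries and 3.37 to 5.26 CPM in the others. No other marker of the list exceeded 1.83 CPM, and 5 of the 7 were at 0 in at least 1 library. The part of B and T cell content in these chemokine values was not tested.

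The genotype difference of these members depended on which of the 2 libraries was kept. For Ccr7 the log2 fold change was -0.22 (SE 0.82) with all 6 libraries, 0.68 without control replicate 3, -1.10 without Pax7-CreERT replicate 3 and -0.20 without both. For Cxcr5 the same values were -0.25, 0.60, -0.92 and -0.07. For Cxcr4 they were -0.35, 0.01, -0.73 and -0.37, and for Cxcl13 -0.82, -0.06, -1.20 and -0.44. In none of these fits did any of the 4 genes pass the adjusted threshold.

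A second group ranked highest in Pax7-CreERT replicate 1 and control replicate 3. Both libraries were above the other 4 in 16 of the 42 tested members, or 38.1%, against 7.11% of all tested genes. Among ligands these were Ccl6, Ccl7, Ccl9, Ccl11, Ccl12, Ccl21a, Ccl27a and Cxcl14, and the receptors included Ccr2, Ccr3, Cx3cr1, Cxcr3, Ackr2, Ackr4 and Ccrl2. The rule is by rank alone, and several entered by margins within counting error, so the 16 are not all clear separations. Ccl7 had 5.57 CPM and Ccl12 1.68 CPM in Pax7-CreERT replicate 1. The next values were 5.29 CPM in Pax7-CreERT replicate 3 and 1.35 CPM in control replicate 2. In control replicate 3 Ccr3 had 2.47 and Ccl21a 14.6 CPM, against 2.24 and 14.0 CPM in Pax7-CreERT replicates 3 and 2. In Pax7-CreERT replicate 1 Ccl27a had 10.1976 CPM and Cxcr3 1.37, against 10.1968 and 1.34 CPM in control replicate 1. Ackr4 had 9.88 CPM there, against 9.58 in Pax7-CreERT replicate 2. The summed CPM of 12 macrophage markers, all at 1 CPM or more in every library, was 1035 in Pax7-CreERT replicate 1 and 1397 in control replicate 3. It was 580 to 743 in the other 4. Monocyte markers, 6 in all, summed to 426 and 278 against 194 to 260 CPM. The 9 markers of mesenchymal fibro-adipogenic progenitors summed to 6636 and 5301 against 3277 to 3680 CPM. Of the macrophage markers, Mertk stood at 65.8 CPM in Pax7-CreERT replicate 1 and 62.2 CPM in control replicate 3. That was within its range of 54.2 to 69.4 CPM in the other 4. All other macrophage markers were above the other 4 libraries in both. The monocyte and progenitor markers did not all rise in control replicate 3. There the monocyte marker Fn1, at 45.6 CPM, and the progenitor marker Ly6a, at 372 CPM, were at their lowest. Vcan, Col1a1, Col3a1 and Lum were higher in Pax7-CreERT replicate 2 than in control replicate 3. F13a1, Dcn, Gsn, Pdgfra, Pi16 and Dpp4 were above the other 4 libraries in both. Per 100 CPM of the macrophage markers, Ccl9 stood at 4.28 to 7.21 CPM and Ccl6 at 1.65 to 2.83 CPM in the 6 libraries, and Ccr2 at 15.3 to 24.2 CPM per 100 of the monocyte markers. The part of macrophage and progenitor content in these values was not tested. Without both libraries the log2 fold change of Ccl9 was 0.30, against -0.09 with all 6, and it did not pass (limma adjusted p = 0.9995). Leaving out control replicate 3 alone gave 0.50 (limma adjusted p = 0.728).

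**Figure D4:**
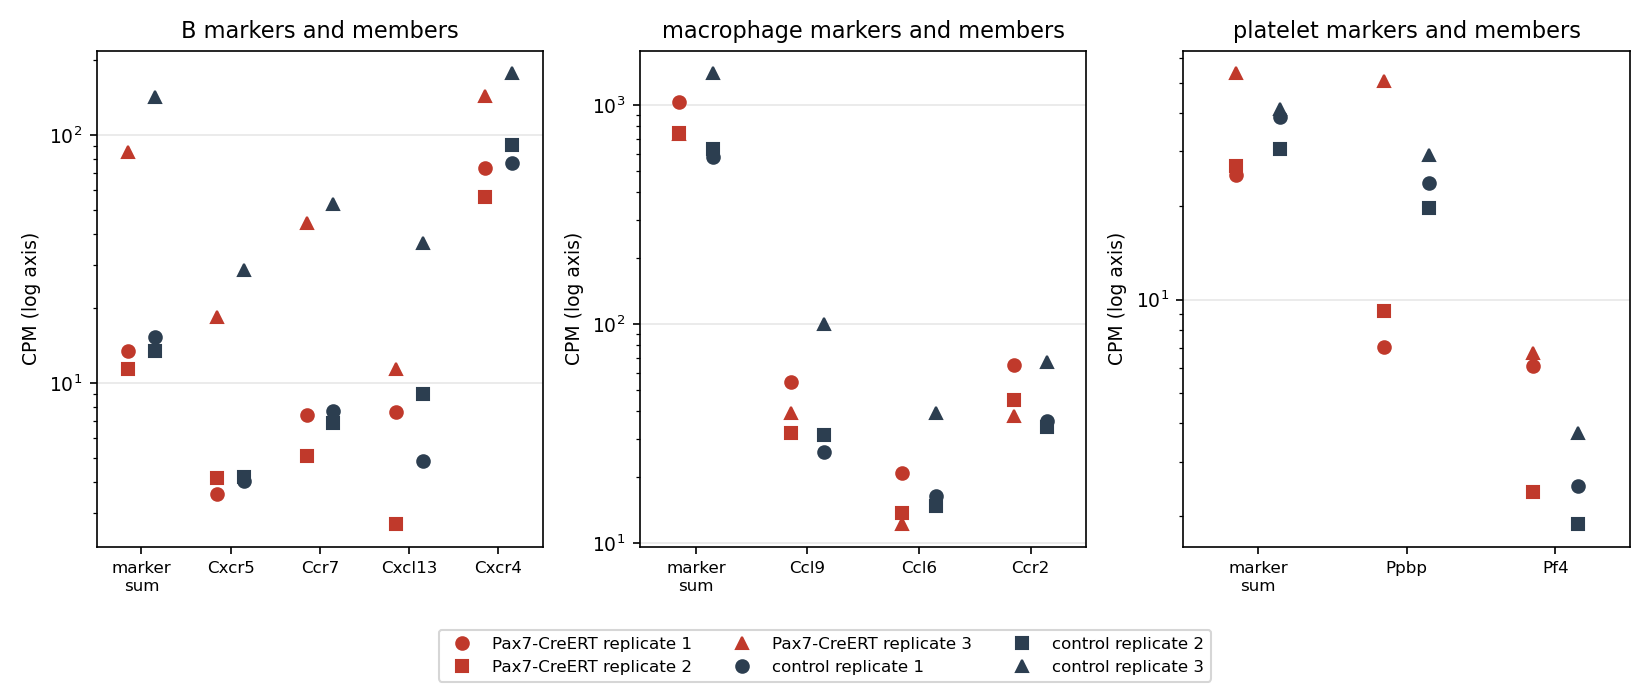
CPM in the 6 libraries (log axes) of members beside the summed CPM of B cell, macrophage and platelet markers; red, Pax7-CreERT; dark, control; circle, square and triangle for replicates 1, 2 and 3. Replicate 3 of both groups is high in B cell markers, Ccr7 and Cxcr5, Pax7-CreERT replicate 1 and control replicate 3 are high in macrophage markers, Ccl9 and Ccr2, and Ppbp is low in Pax7-CreERT replicates 1 and 2.

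The platelet chemokines did not run together. Ppbp and Pf4 are neighbours on chromosome 5, and the products of both are stored in platelet granules. Pax7-CreERT replicate 1 had 7.04 CPM of Ppbp, its lowest value, and 6.10 CPM of Pf4, close to its highest. The summed CPM of 8 platelet markers was 25.2, 26.9 and 53.6 in the Pax7-CreERT replicates and 38.6, 30.5 and 41.2 in the controls. Of these markers 5 reached 1 CPM in all 6 libraries. Ppbp followed this sum in being lowest in Pax7-CreERT replicates 1 and 2 and highest in replicate 3. Per 100 CPM of the markers it ranged from 28.0 to 94.2 CPM, a ratio that depends on the markers summed. Among them Gp1ba was nearly flat, at 14.6 to 18.5 CPM, and made up 15.9 of the 25.2 CPM in Pax7-CreERT replicate 1. The part of platelet content in the Ppbp values was not tested. The log2 fold change of Ppbp was -0.62 (SE 0.56, limma adjusted p = 0.906) with all libraries, -1.46 without Pax7-CreERT replicate 3 (adjusted p = 0.240) and -1.32 without replicate 3 of both groups (adjusted p = 0.0532). The last was the lowest adjusted p of any member in any of the 15 alternatives. When Pax7-CreERT replicate 1 and control replicate 3 were both left out it was 0.02.

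**Figure D5:**
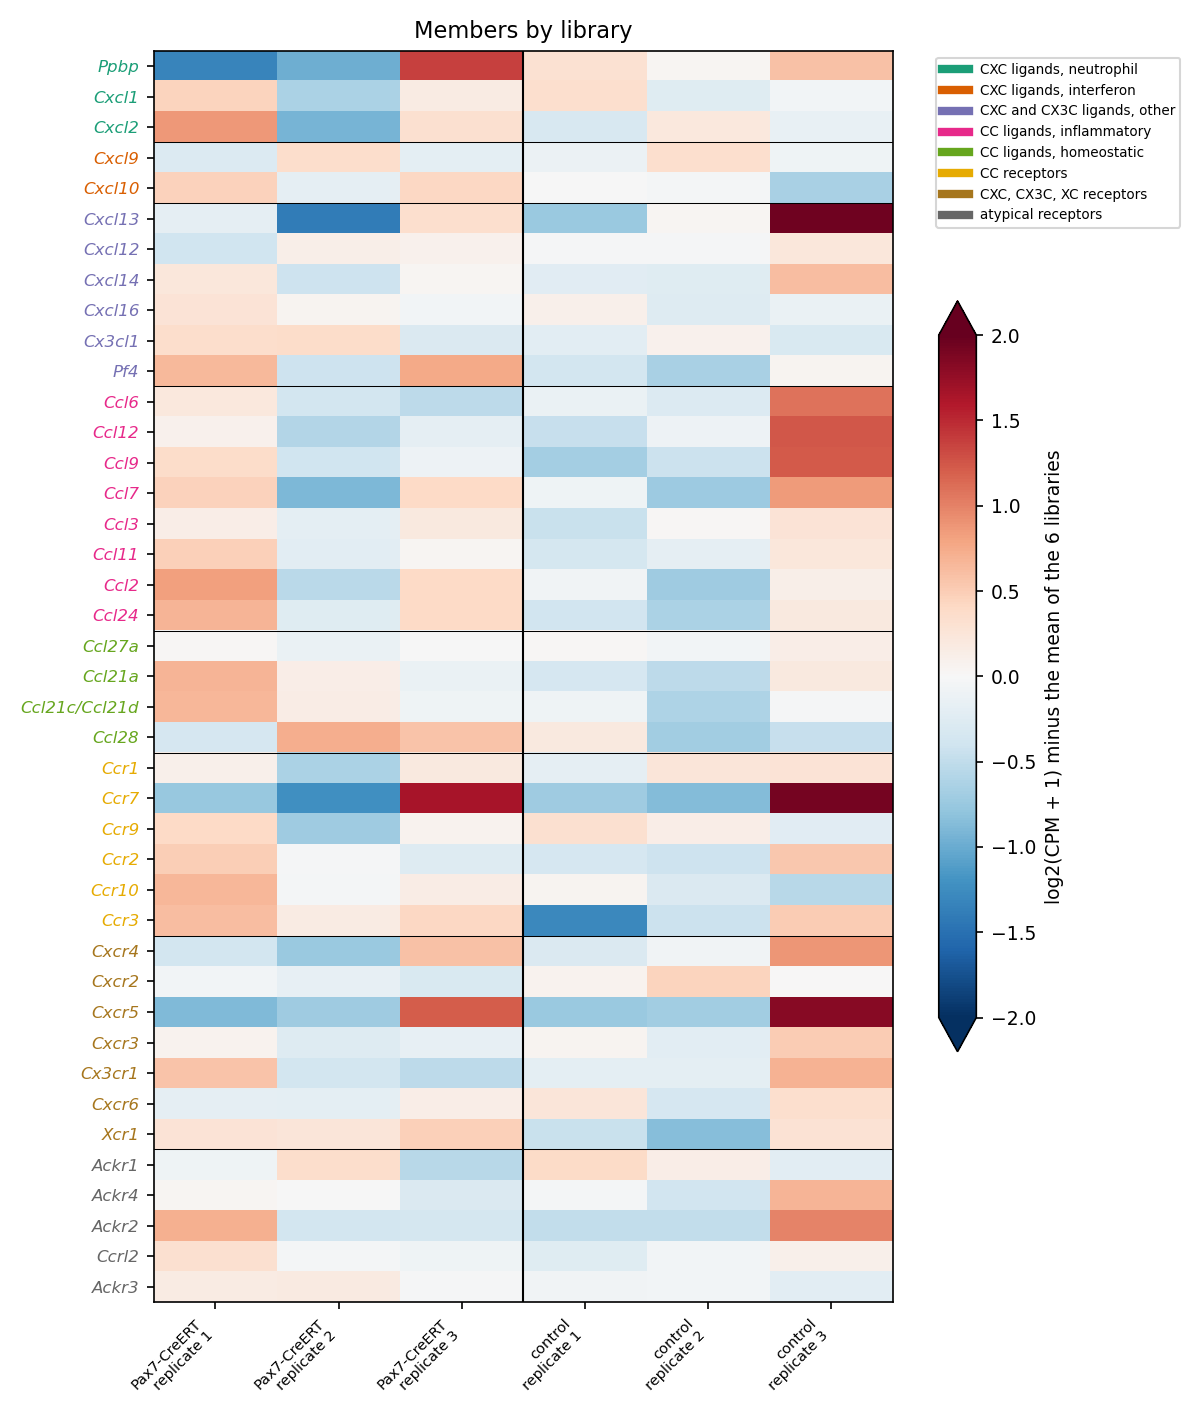
Of the 42 tested members, 41 (rows, grouped by role) in the 6 libraries (columns, Pax7-CreERT left of the line), as log2(CPM + 1) minus the mean of the 6 libraries; red is above the mean and blue below, to 2 in either direction. Control replicate 3 is red for most inflammatory CC ligands and many receptors, Pax7-CreERT replicate 2 is blue for 12 members in which it is the lowest library, and no block of rows divides by genotype.

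Sums over gene clusters were led by their most abundant genes. The cluster of Ccl2, Ccl7, Ccl11, Ccl12 and Ccl8 on chromosome 11 (82035577 to 82116799, mm10) summed to 110, 64.0 and 82.0 CPM with Cre and 61.7, 65.6 and 97.7 CPM without Cre. That of Ccl5, Ccl9, Ccl6, Ccl3 and Ccl4, further along chromosome 11 (83525779 to 83664683), summed to 82.0, 48.7 and 57.4 against 45.6, 50.8 and 145 CPM. In both clusters the groups overlapped, and Pax7-CreERT replicate 1 and control replicate 3 had the highest sums. Ppbp, Pf4, Cxcl1 and Cxcl2 on chromosome 5 (90768518 to 90905938) summed to 104, 48.5 and 128 against 97.1, 77.5 and 90.5 CPM. The lowest sum there was that of Pax7-CreERT replicate 2.

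Levels of different genes were compared per kb of merged exons, for the 41 tested members with a GENCODE length. Cxcl12 was highest, at 177 ± 24.8 CPM per kb (SD over 6 libraries), and its lowest library, 133, was above the highest library of the next gene. Ackr3 followed at 100.3 ± 10.4 CPM per kb, then Ccl11 at 65.3 ± 14.7, Cxcl14 at 61.6 ± 17.3, Cxcr4 at 57.1 ± 26.0, Cxcl1 at 51.0 ± 13.6 and Ackr1 at 45.7 ± 11. From Ackr3 downward the range of each gene overlapped that of the next, in 39 of 40 neighbouring pairs, so only the place of Cxcl12 was resolved between neighbours. Xcr1 was last, at 0.256 ± 0.149 CPM per kb. The order rests on annotated lengths and not on the isoforms present.

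Of the 54 members, 12 stayed under the filter, and 7 of these never reached 1 CPM. Ccl22, a dendritic cell chemokine, had 3.46 CPM in Pax7-CreERT replicate 3 and 0 to 0.740 CPM in the other libraries. Ccl4 measured 3.05, 0.524 and 2.04 CPM with Cre and 0.669, 0.943 and 0.247 CPM without Cre, with overlapping groups. Ccl25 reached 1.73 CPM in control replicate 3. Ccl8, Cxcl17, Ccr4, Ccr8 and the pseudogenes Ccl19-ps1 and Ccl19-ps2 were at or below 0.841 CPM in every library, close to that floor.

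The genes through which chemokine receptors signal were examined beside the members, as a list of 48 tested genes for G protein subunits, kinases, arrestins, regulators of G protein signalling, Rac and Rap activators, integrin adaptors, and enzymes that sulphate, cleave or shed chemokines and receptors. Of the 48, 37 were higher and 11 lower with Cre (median log2 fold change 0.13, against 0.09 over all tested genes), and 29 and 19 after TMM scaling (median 0.03). None passed the adjusted threshold, and 1 was higher at an unadjusted p under 0.05, against 4.58% of all tested genes in that direction. That gene was Prex1, a Rac activator of leukocytes, with 23.4, 18.9 and 18.8 CPM with Cre and 17.1, 15.1 and 14.1 CPM without Cre (log2 fold change 0.38, unadjusted p = 0.0463, limma adjusted p = 0.896). Its groups did not overlap, nor did those of Gng10, Tln1 and Adam17, each higher with Cre, which makes 4 of 48 against 8.69% of all genes in that direction. Gng10, a G protein gamma subunit, measured 15.5, 13.03 and 14.7 against 10.7, 8.89 and 12.6 CPM. Another gamma subunit, Gng2, measured 44.3, 50.5 and 49.3 against 36.1, 36.2 and 44.4 CPM, and overlapped by a small margin.

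In the lower direction 0 of the 48 had an unadjusted p under 0.05, against 0.942% of all genes. Fgr, a Src family kinase of myeloid cells, measured 19.8, 17.3 and 11.6 CPM with Cre and 14.5, 25.9 and 31.6 CPM without Cre. Rasgrp2, a Rap activator of platelets and leukocytes, measured 19.0, 23.0 and 22.6 against 21.7, 30.6 and 24.4 CPM. Vav1, a Rac activator of blood cells, measured 3.89, 2.70 and 7.33 against 3.51, 5.93 and 10.1 CPM. The groups overlapped in all 3 of these genes.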

How the data were processed

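RNA from muscle mononuclear cells of 6 mice (3 per genotype) was sequenced after Trizol extraction and SureSelect strand-specific library preparation, per the labels' protocols. The authors deposited 1 table of CPM for 17030 genes, with 0.0001 added to each value (read from the values: every column has the same sum and its lowest value is that constant). Partek, DESeq2 and mm10 are named without a role in the submitters' processing notes; the aligner, counting rule and annotation are not given in the sources used here. Ends in the table were 1 base past RefSeq for 11051 of the 17013 symbols matched to it, and ends were reduced by 1. Depth was estimated from the step between low values, of which 93.1% to 94.2% were whole reads within 0.05 read, so whole reads were not treated as recovered. Exon lengths came from GENCODE M21 (GRCm38) for 52 of 54 members.

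The filter kept genes reaching 1 CPM in 3 or more libraries. These were fitted on the log2(CPM + 1) scale in limma (version 3.58.1, run under R 4.3.3) with a mean-variance trend, and p-values were adjusted over all 14763 genes (Benjamini-Hochberg, 0.05). Fold changes on this scale understate those of low genes. TMM factors (trimmed mean of log ratios) were computed from the CPM. Single members were also tested with exact permutation over the 20 divisions. The named genes were the 5 smallest p in each direction, members whose groups did not overlap, the 2 most abundant of each role, and the 5 most uneven at 5 CPM or more; of the signalling list, the 3 smallest p in each direction. Further members are given for completeness of each role. The members and lists were chosen with earlier results of these data known. P-values set the genotype difference against the spread between these mice. Alternatives were TMM scaling, pseudocounts of 0.5 and 0.1, no filter, a filter of 5 CPM, array weights, voom, and libraries left out. One tested member counts in every total but is not reported here by its own values or in the figures.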

Additional observations from a re-analysis of the deposited data

How the results depend on the processing

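No member passed the threshold under any of the 15 alternatives. Over all genes, the 1 call became 2 with no filter on low values, 2 with voom, 2 when Pax7-CreERT replicate 1 and control replicate 3 were both left out, and 22 without replicate 3 of both groups, an alternative chosen after seeing the data; leaving out 1 library gave 0 to 1. The 20 members higher became 11 with the filter of 5 CPM, where fewer genes are tested, and ran from 18 to 29 when 1 library was left out. The 22 lower became 14 with array weights, 11 when Pax7-CreERT replicate 1 and control replicate 3 were both left out, 14 without replicate 3 of both groups, and ran from 13 to 24 when 1 library was left out. The members' median log2 fold change ran from -0.14 to 0.20 when 1 library was left out, the highest without control replicate 3, and the cause was not tested. Among the signalling genes, TMM scaling gave 19 lower and a median of 0.03, with Pax7-CreERT replicate 1 and control replicate 3 both left out the median was 0.0644, and leaving out 1 library gave medians of 0.10 to 0.17. The log2 fold change of Ccl6 reversed to 0.12 without replicate 3 of both groups, that of Ppbp to 0.0199 when Pax7-CreERT replicate 1 and control replicate 3 were both left out, and that of Ccl12 to 0.0523 without control replicate 3. Leaving out 1 library gave -0.708 to -0.0304 for Ccl6 and -0.794 to 0.0523 for Ccl12. The median of the receptors was 0.17 with array weights, 0.163 without Pax7-CreERT replicate 2 and 0.165 without control replicate 3, against -0.16 with all libraries. No paired analysis was possible because the labels give no replicate numbers; those used here only name the mice. At 4054000 to 13355000 reads, members under 1 CPM rest on a few reads.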
